A study of Mus musculus with 6 samples.

Results

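The genes described here are the mouse Zfp genes, protein-coding genes named Zfp and a number, most of which encode C2H2 zinc finger proteins. Members were the protein-coding rows of the deposited table whose gene name is Zfp followed by a digit, without names that start with Zfp36. That left out Zfp36 and Zfp36l1, whose proteins bind RNA through another kind of finger, and also Zfp367, whose name shares only those letters. There were 171 such genes, in 216 transcript rows, of 8969 protein-coding genes in the table; 36 of the genes had several rows, whose levels were summed. They were measured in 3 I/R hearts and 3 Sham hearts of male mice, all of them isolated and perfused in a Langendorff system, in which the coronary vessels of the removed heart are supplied with solution. I/R stands for ischaemia and reperfusion, labelled as ischaemia for 30 min and reperfusion for 1 h. The I/R hearts were arrested with cardioplegia for 30 min and then reperfused for 1 h, whereas the Sham hearts were not arrested. The labels call the hearts biological replicates and do not say how the animals were handled. The p-values set the difference between groups against the spread between these hearts within each group. Neither an intact circulation nor an occluded coronary artery is part of this model, and the labels give neither strain nor age.

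A C2H2 finger is a short loop held by a zinc ion between cysteines and histidines, and rows of such fingers read DNA sequence. Many Zfp proteins also carry a KRAB domain, which recruits the corepressor encoded by Trim28 and the histone methyltransferase encoded by Setdb1 and so silences transposable elements and nearby genes. Members without KRAB include developmental regulators such as Zfp503 and Zfp703. The mRNAs of zinc finger transcription factors are known as a class for short half-lives, unlike those of ribosomal proteins, respiratory chain subunits and sarcomere proteins.

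Zfp genes lie in clusters made by duplication, and 83 of the 171 were on chromosomes 7, 13 and 17. Relatives in a cluster keep sequence in common, in their coding parts and before their start sites. The 250 bases before the first listed RefSeq start site (GRCm38.p6) were found by symbol for 143 of the 171 genes. The motif TGACGTCA, the cyclic AMP response element or CRE, which is its own reverse complement, stood in 9 of these 143 windows (6.29%), against 2.24% of 6778 windows of the table's protein-coding genes and 1.62% of all 27025 windows. Of the 9, 5 were on chromosome 13, where 16 windows were searched. They are shown with up to 10 bases on each side because the duplicated genes can be compared by eye; capitals mark the motif and each is on the strand of its gene, the minus strand for all but Zfp523.
Zfp457, chr13:67306451-67306478: ccatcgcctgTGACGTCAtcagaaagag
Zfp953, chr13:67360607-67360634: cggatgcctgTGACGTCAtcagaaggct
Zfp595, chr13:67332571-67332598: cctaccacgtTGACGTCAccaaaaggct
Zfp874a, chr13:67451625-67451644: tgcagcacggTGACGTCAca
Zfp72, chr13:74390842-74390869: tcgcatggtgTGACGTCAcaagcaaggg
Zfp266, chr9:20521420-20521446: gaaatggaagTGACGTCAcggccagcc
Zfp426, chr9:20492751-20492778: cgagcggaagTGACGTCAtgcccgcgcc
Zfp473, chr7:44748755-44748782: cctcaggcagTGACGTCAcaggctgccg
Zfp523, chr17:28177124-28177151: cccggcgtcgTGACGTCAtcacgccctc

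Zfp457 and Zfp953 share several letters on both sides of the motif. Zfp266 and Zfp426, both on chromosome 9, share those just before it. The CCAAT box (CCAAT, either strand) was in 68 of 143 windows (47.6%), against 36.0% of those of the table's protein-coding genes and 34.5% of all windows. The GC box (GGGCGG, either strand) was in 53 (37.1%), against 53.1% and 32.9%. A TATA box (TATAAA) was in 8 windows, an E-box (CACGTG) in 7, an AP-1 site (TGANTCA) in 5 and an ETS core (CCGGAAG) in 19. The CRE can share its end letters with an E-box, and none with the ETS core. The shares among the windows of the table's protein-coding genes and among all windows were 7.60% and 12.97% for the TATA box, 7.996% and 6.05% for the E-box, 5.25% and 6.87% for the AP-1 site and 10.6% and 7.05% for the ETS core. The median content of G and C was 52.8% in Zfp windows and 58.8% in windows of the table's protein-coding genes. A motif match is a description of the letters and says nothing of whether a factor bound there.

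**Figure D1:**
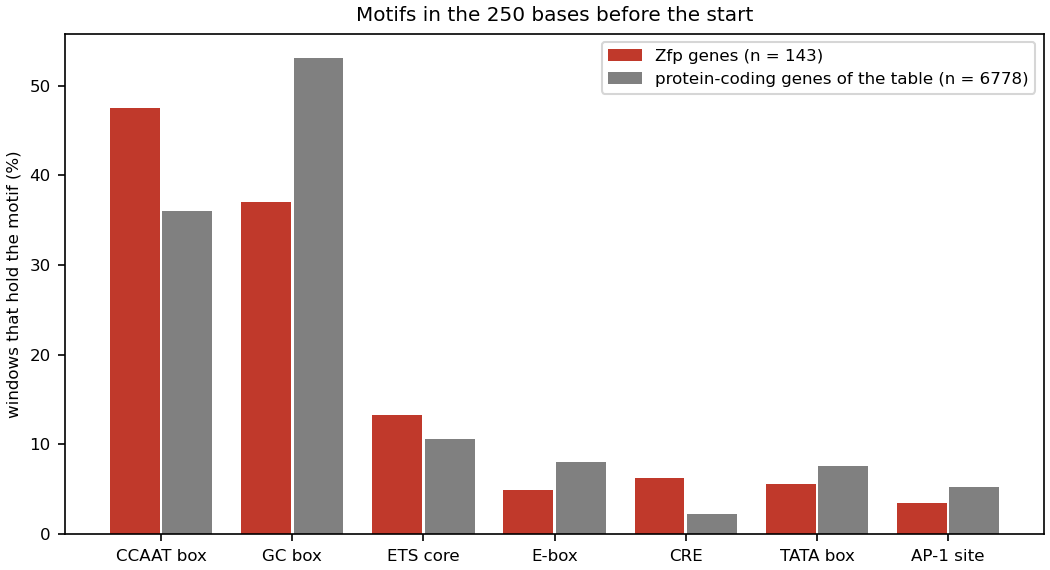
Share of the 250-base windows before the RefSeq start that hold each motif on either strand, in percent, for 143 Zfp genes (red) and 6778 protein-coding genes of the table (grey). The CCAAT box and the CRE stand in a larger share of Zfp windows (47.6% and 6.29%) and the GC box in a smaller share (37.1%).

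Levels were given as FPKM, fragments scaled to transcript length and to the library's total, so levels can be compared between genes per length. Most Zfp genes were rare, and so were most protein-coding genes in the table. The median level over 6 hearts was 0.644 FPKM for the 171 Zfp genes and 0.73 FPKM for all protein-coding genes in the table. Of the 171, 6 genes had 10 FPKM or more, 19 had 5 to 10 and 71 had 0.5 to 5, while 75 were under a mean of 0.5 FPKM and were not tested. The share tested was 56.1% of Zfp genes and 56.2% of all protein-coding genes in the table. The gene just above that filter was Zfp457 (0.504 FPKM) and the gene just below it Zfp618 (0.437 FPKM). Whole numbers of reads could be recovered for all 216 Zfp rows, 69851 reads in the 6 hearts, and the 12 most abundant genes held 53.5% of them. The library totals by which the authors scaled protein-coding FPKM were 7690040 to 8896834 reads in I/R hearts and 7233171 to 9902397 in Sham hearts. The protein-coding transcripts analysed here held 38.1% to 39.9% of these totals in I/R hearts and 36.8% to 38.3% in Sham hearts, so a gene's value can rest on part of its reads.

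The most abundant Zfp genes did not separate the groups, since in all 12 the I/R hearts overlapped the Sham hearts. Zfp706 (ENSMUSG00000062397, GRCm38 chromosome 15, 36997027 to 37007773), known from mouse embryonic stem cells as a factor for leaving self-renewal, was by far the most abundant member. It had 63.8, 67.4 and 57.6 FPKM in I/R hearts, against 65.0, 57.4 and 58.6 FPKM in Sham hearts. Its log2 difference was 0.06 ± 0.11 (here and below I/R minus Sham in log2(FPKM + 1), with the SE of the fit), smaller than its error. Its long transcript ENSMUST00000078976 held 89.1% of its FPKM. A short one, ENSMUST00000228275, chosen after its values were seen, was at 3.51, 3.27 and 2.66 FPKM in I/R hearts and 1.68, 1.51 and 1.44 FPKM in Sham hearts, from 13, 14 and 10 reads in I/R hearts and 8, 7 and 5 in Sham hearts.

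Zfp703 (ENSMUSG00000085795, chromosome 8, 26977325 to 26981461), a repressor without KRAB that is amplified in human breast tumours, had 21.3, 32.4 and 25.9 FPKM in I/R hearts, against 21.1, 28.0 and 25.2 FPKM in Sham hearts (0.09 ± 0.19). Both groups had their lowest value in replicate 1. The opposite strand of this gene carries the lncRNA Gm45371, and reads of the 2 cannot be told apart unless counting used strand, a setting not stated for these data. Such an overlap with another gene of the table held for 23 of the 96 Zfp genes tested. Of the 12 most abundant genes, 7 had a positive and 5 a negative difference, and the one furthest from 0 was that of Zfp950, a KRAB gene, at −0.32 ± 0.25. Zfp950 had 12.1, 6.8 and 6.85 FPKM in I/R hearts, against 12.7, 9.09 and 10.4 FPKM in Sham hearts, so that I/R replicate 1 lay among the Sham hearts and the other two below them. The difference was −0.57 without I/R replicate 1, −0.19 without I/R replicate 2, −0.20 without I/R replicate 3 and −0.20 without Sham replicate 1. Zfp955a had 27.2, 19.9 and 25.5 FPKM in I/R hearts, against 32.1, 23.5 and 24.7 FPKM in Sham hearts (−0.14 ± 0.18). Its relative Zfp955b lies beside it on chromosome 17, and reads of close relatives can be split between them.

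Zfp784 had 12.2 to 14.0 FPKM in I/R hearts, against 13.1 to 16.4 FPKM in Sham hearts (−0.13 ± 0.15). Zfp322a, known from the pluripotency of mouse embryonic stem cells, differed by −0.11 ± 0.16, and the KRAB gene Zfp398 by −0.13 ± 0.15. Zfp3 (0.04 ± 0.17), Zfp867 (0.01 ± 0.18), Zfp719 (0.01 ± 0.16), Zfp9 (0.07 ± 0.14) and Zfp64 (0.05 ± 0.17) had positive differences within 1 SE.

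**Figure D2:**
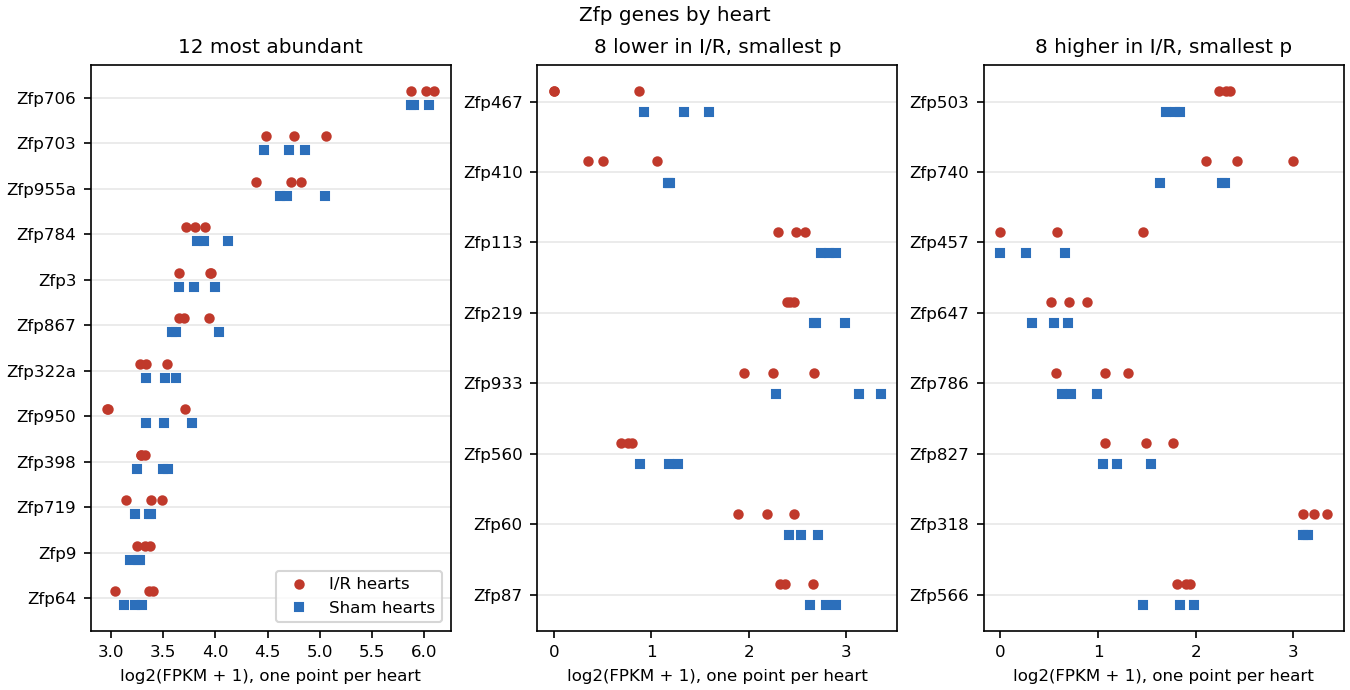
Level of 28 Zfp genes in each heart, as log2(FPKM + 1), with I/R hearts as red circles above Sham hearts as blue squares. In the 12 most abundant genes (left) the groups overlap, whereas Zfp503 lies wholly higher and Zfp467, Zfp410, Zfp113, Zfp219 and Zfp560 lie wholly lower in I/R hearts.

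No Zfp gene passed the test of I/R against Sham hearts, which asks which of them differ 1 h after the arrest. Of 96 Zfp genes tested, 0 had an adjusted p under 0.05 (limma, Benjamini-Hochberg over 12114 genes), and the smallest adjusted p was 0.492. The background of the same test was 0 of 12114 genes (0.0%). At an unadjusted p under 0.05 there was 1 gene higher and 1 lower, 2 of 96, where 5.1% of 5041 protein-coding genes had such a p in either direction. Over all genes tested, lncRNAs included, 4.21% had such a p and were lower in I/R hearts and 4.23% had it and were higher. On the recovered reads, limma voom gave 6 Zfp genes with an unadjusted p under 0.05 (background 8.57% of 5040 genes) and 0 after adjustment. In both fits the share of Zfp genes with a small p was near or below that background.

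Zfp503 (ENSMUSG00000039081, chromosome 14, 21983959 to 21989601), known as Nolz1 from the development of the striatum, had the smallest p among members with at least 100 reads. It had 3.73, 3.95 and 4.09 FPKM in I/R hearts, against 2.44, 2.58 and 2.23 FPKM in Sham hearts, so that every I/R heart lay above every Sham heart. Its means were 3.92 ± 0.18 FPKM in I/R hearts and 2.42 ± 0.178 FPKM in Sham hearts (SD, n = 3 each), from 404 and 275 reads, and its log2 difference was 0.53 ± 0.17 (limma, unadjusted p = 0.0197, adjusted p = 0.498). It was the only 1 of 96 tested Zfp genes whose I/R hearts all lay above the Sham hearts, where 8.83% of protein-coding genes did so. Its window is shown for that reason, with CpG in capitals (GRCm38.p6, chr14:21989602-21989851, minus strand), and it held 13 CpG and none of the 7 motifs searched.
Zfp503: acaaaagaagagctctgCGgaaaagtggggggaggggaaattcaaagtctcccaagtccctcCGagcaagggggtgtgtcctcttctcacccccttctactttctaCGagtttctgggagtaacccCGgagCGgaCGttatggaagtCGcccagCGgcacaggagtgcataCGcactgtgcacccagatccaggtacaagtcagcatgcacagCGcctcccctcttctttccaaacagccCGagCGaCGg

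The I/R hearts lay all below the Sham hearts for 8 Zfp genes (8.33% of those tested), where 5.12% of protein-coding genes did so. Zfp467 (ENSMUSG00000068551, chromosome 6, 48427697 to 48445825), which promotes fat cell differentiation of mouse marrow stroma, had 0, 0 and 0.828 FPKM in I/R hearts, against 1.53, 2.02 and 0.896 FPKM in Sham hearts. These values rest on 3 reads in I/R hearts and 19 in Sham hearts, a ratio of 0.173 with an exact 95% counting interval of 0.0328 to 0.588 (limma, unadjusted p = 0.0175, adjusted p = 0.492). The interval covers counting error only, and the I/R heart with reads came close to the lowest Sham heart. Zfp410, whose human relative activates the chromatin remodeller gene CHD4, had 0.42, 1.09 and 0.275 FPKM in I/R hearts, against 1.25, 1.28 and 1.26 FPKM in Sham hearts (−0.54 ± 0.24). Its reads numbered 28 in I/R hearts and 63 in Sham hearts, and the lncRNA Gm47484, at 696 FPKM in I/R and 715 FPKM in Sham hearts on the separate scale of lncRNAs, overlaps it on the opposite strand. Zfp445 (−0.36 ± 0.24), which helps keep genomic imprints, had 12 reads in I/R hearts and 27 in Sham hearts. The lncRNA Gm47140, at 8.27 FPKM in I/R and 12.3 FPKM in Sham hearts, overlaps it on the same strand, and reads of the 2 can be confused. In limma voom Zfp410 differed by −1.22, Zfp445 by −0.93 and Zfp560 by −0.78.

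Zfp113 and Zfp219 were more abundant. Zfp113, a KRAB gene (ENSMUSG00000037007, chromosome 5, 138139702 to 138155744), had 4.95, 3.94 and 4.58 FPKM in I/R hearts, against 6.08, 5.7 and 6.45 FPKM in Sham hearts. Its log2 difference was −0.37 ± 0.17 (limma, unadjusted p = 0.0688, adjusted p = 0.612), from 693 reads in I/R hearts and 998 in Sham hearts. Zfp219 (ENSMUSG00000049295, chromosome 14, 52006077 to 52020733), a partner of Sox9 in cartilage, had 4.52, 4.38 and 4.26 FPKM in I/R hearts, against 5.48, 6.92 and 5.38 FPKM in Sham hearts (−0.36 ± 0.18), from 77 reads in I/R hearts and 115 in Sham hearts. The lncRNA Gm49086, at 10.5 FPKM in I/R and 14.2 FPKM in Sham hearts, overlaps it on the opposite strand. The other genes with all I/R hearts below the Sham hearts were Zfp560, Zfp595 and Zfp300, with means of 0.684, 1.04 and 0.405 FPKM in I/R hearts and 1.18, 1.4 and 0.723 FPKM in Sham hearts. Zfp595 and Zfp300 are named after their values were seen.

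Other members with small p values had overlapping hearts. Zfp933, on chromosome 4, had 5.37, 2.87 and 3.77 FPKM in I/R hearts, against 7.74, 3.87 and 9.23 FPKM in Sham hearts (−0.63 ± 0.33). Sham replicate 2 lay within the range of the I/R hearts, and the difference was −0.95 without it and −0.41 without Sham replicate 3. Zfp60 differed by −0.37 ± 0.22 and Zfp87 by −0.32 ± 0.19, both KRAB genes with only the lowest Sham heart below the highest I/R heart. Among members with positive differences after Zfp503, Zfp740 had 6.97, 4.36 and 3.31 FPKM in I/R hearts, against 3.92, 2.11 and 3.83 FPKM in Sham hearts (0.44 ± 0.31). Its difference was 0.20 without I/R replicate 1 and 0.22 without Sham replicate 2. Zfp318, which controls the choice between IgM and IgD transcripts in B cells, differed by 0.09 ± 0.15. Zfp457 differed by 0.37 ± 0.40, from 9 reads in I/R hearts and 4 in Sham hearts. Zfp647 (0.18 ± 0.21), Zfp786 (0.20 ± 0.26), Zfp827 (0.18 ± 0.26) and Zfp566 (0.12 ± 0.21) had differences smaller than their SE.

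Genes with known roles outside this order were low in the transcripts listed. Zfp423, which commits cells to the fat lineage, had 2.71, 0.953 and 0.926 FPKM in I/R hearts, against 1.39, 1.65 and 0.477 FPKM in Sham hearts (0.19 ± 0.36). Zfp622, which takes part in maturation of the large ribosomal subunit, differed by −0.11 ± 0.19. The imprint keeper Zfp57 and the promoter factor Zfp143 were under the filter, with 6 and 7 reads in I/R hearts and 6 reads each in Sham hearts. Each had only 1 transcript listed, so these counts can miss other reads of the gene. The differences of Zfp423 and Zfp622 were smaller than their SE.

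**Figure D3:**
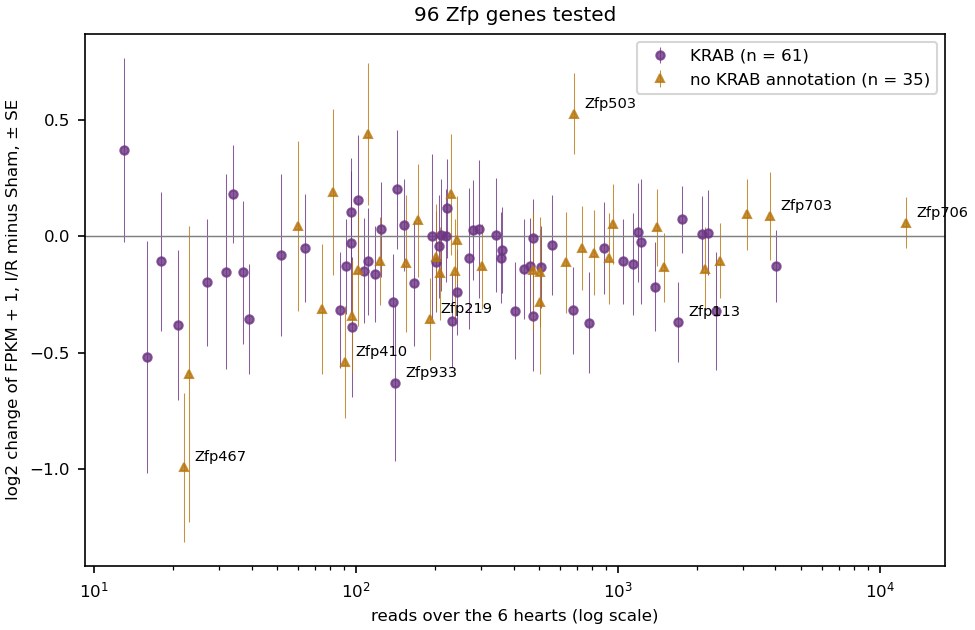
Log2 difference (I/R minus Sham, log2(FPKM + 1), bars ± SE) of the 96 Zfp genes tested against their reads over the 6 hearts, with KRAB genes as circles and other genes as triangles. Most points lie a little below 0 at all read numbers, Zfp503 stands at 0.53 and Zfp467 at the lower left rests on 22 reads.

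As a family the Zfp genes lay slightly lower in I/R hearts. Of the 96 tested, 68 (70.8%) had a log2 difference below 0, where 45.1% of 5041 protein-coding genes did, and 28 had one above 0, where 54.9% did. Without the filter on low values 64.9% of the 171 Zfp genes were lower, against 47.7% of 8969 protein-coding genes. The median difference was −0.11 (quartiles −0.20 and 0.01), while that of all protein-coding genes was 0.02. These are counts and medians of genes that share 6 hearts, with no test of the family. By read number, the median was −0.18 over 20 Zfp genes with at least 20 and under 100 reads, −0.09 over 32 with at least 100 and under 300 and −0.11 over 41 with 300 or more, where all protein-coding genes in the same ranges had −0.05, 0.00 and 0.04.

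By heart, however, the groups overlapped. The median over Zfp genes of the log2(FPKM + 1) level, each gene relative to its mean over 6 hearts, was 0.12, −0.13 and −0.14 in I/R replicates 1, 2 and 3, against 0.15, −0.06 and 0.03 in Sham replicates 1, 2 and 3. I/R replicate 1 thus lay above Sham replicates 2 and 3, and only I/R replicates 2 and 3 lay below every Sham heart. The group means of these medians were −0.05 ± 0.15 in I/R hearts and 0.04 ± 0.10 in Sham hearts (SD, n = 3 each), a difference smaller than the spread between hearts. In reads, the 171 Zfp genes together took 1452, 1289.9 and 1240.5 of every 1000000 reads of the library total in I/R hearts, against 1503, 1325 and 1360.0 in Sham hearts, which overlapped in the same way. In both measures each I/R heart lay below the Sham heart of the same number, but the labels do not pair the hearts. The family median of −0.11 was −0.18 without I/R replicate 1, −0.04 without I/R replicate 2 and −0.06 without Sham replicate 1.

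Genes with and without a KRAB annotation are given side by side, and whether they differ was not tested. The table's orthology column annotates 101 of the 171 genes as KRAB proteins, 3 of them with a SCAN domain also. No protein sequence was searched, so some genes without this annotation may still encode the domain. The median log2 difference was −0.11 over 61 KRAB genes tested (44 lower, 17 higher) and −0.11 over 35 others (24 lower, 11 higher). By heart the KRAB median was 0.12, −0.16 and −0.16 in I/R hearts and 0.17, −0.07 and 0.03 in Sham hearts. For the other genes it was 0.13, −0.07 and −0.12 in I/R hearts and 0.09, −0.04 and 0.00 in Sham hearts. The group means of these heart medians were −0.07 ± 0.16 in I/R hearts and 0.04 ± 0.12 in Sham hearts with KRAB, and −0.02 ± 0.13 in I/R hearts and 0.02 ± 0.06 in Sham hearts without (SD, n = 3 each). Of every 1000000 reads of the library total, KRAB genes took 607 ± 80.0 in I/R hearts and 672 ± 64.7 in Sham hearts, and the other genes 720.3 ± 36.6 in I/R hearts and 724 ± 30.0 in Sham hearts (SD, n = 3 each). In each of these measures the hearts of both groups overlapped. Genes were also counted by whole chromosome, without marking out clusters. On chromosome 17, 11 of 14 genes tested had a difference below 0, on chromosome 13 9 of 12 and on chromosome 7 12 of 17. Their medians were −0.12, −0.12 and −0.08. All 4 genes tested on chromosome 4 and all 4 on chromosome 5 had one below 0, with medians of −0.33 and −0.16. So did 4 of 5 on chromosome 9, 2 of 2 on X and 2 of 5 on chromosome 11. Over all 96 Zfp genes tested the share below 0 was 70.8%. On chromosome 15, 4 of 6 genes had one above 0, Zfp706 and Zfp740 among them.

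Log2 differences were also compared by the motifs with a larger share among Zfp windows than among those of the table's protein-coding genes, the CRE, the CCAAT box and the ETS core, with no test. The 7 tested genes with a CRE had a median log2 difference of −0.13 and the 78 tested without it one of −0.11. For the CCAAT box these medians were −0.10 over 43 genes with it and −0.14 over 42 without. For the ETS core both medians were −0.11, over 13 genes with it and 72 without. The median level over 6 hearts was 2.79 FPKM in tested genes with a CCAAT box and 1.21 FPKM in those without. For the ETS core these levels were 2.97 and 1.66 FPKM, and for the CRE 1.14 and 2.21 FPKM.

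Most tested genes that work with KRAB proteins were lower in I/R hearts, while Trim28 was higher. Of 25 such genes of corepression and heterochromatin, 12 were in the table and 7 were tested, with a median of −0.12, 5 lower and 2 higher, 0 with an adjusted p under 0.05. The share lower was 45.1% over all protein-coding genes tested. Trim28, the corepressor that KRAB binds, had 5.89, 5.72 and 4.96 FPKM in I/R hearts, against 2.24, 2.62 and 3.49 FPKM in Sham hearts, and every I/R heart lay above every Sham heart. Its log2 difference was 0.80 ± 0.20 (limma, unadjusted p = 0.00573, adjusted p = 0.401). The heterochromatin protein gene Cbx1 (−0.36 ± 0.18), the DNA methyltransferase gene Dnmt3a (−0.35 ± 0.27) and the histone demethylase gene Kdm1a (−0.32 ± 0.22) had negative differences. That of Dnmt3a was −0.19 without Sham replicate 1, −0.23 without Sham replicate 2 and −0.64 without Sham replicate 3, and that of Kdm1a was −0.20 without Sham replicate 3, and also nearer 0 when I/R replicate 2 was left out.

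Short-lived and long-lived mRNAs were set beside the Zfp genes through lists that stand for these classes, since half-lives are not in the table. All 27 tested genes of the short-lived list, which joins immediate-early and cytokine genes, were higher in I/R hearts, with a median of 0.76, 14 with an unadjusted p under 0.05 (background 3.43% higher) and 0 with an adjusted p under 0.05. That this list is higher was already known from earlier results of these data, and it is no independent evidence. It contains Zfp36. Klf6, Ccl4, Pim1 and Socs3 differed by 0.56 ± 0.09, 2.01 ± 0.37, 0.98 ± 0.20 and 1.66 ± 0.34. Of 99 tested genes of the long-lived list, 60 (60.6%) were lower and 39 higher, with a median of −0.06, where 45.1% of protein-coding genes were lower. Among these 99, 7 were lower and 2 higher at an unadjusted p under 0.05 (background 1.67% lower and 3.43% higher). The summed level of the list did not fall. It was 9862, 8494 and 8732 FPKM in I/R hearts and 7925, 9128 and 8153 FPKM in Sham hearts, so the groups overlapped. The mean sum was higher in I/R hearts, 9029 ± 731 FPKM against 8402 ± 639 FPKM in Sham hearts (SD, n = 3 each). Ndufb5 and Ndufv2 of respiratory complex I (−0.55 ± 0.13 and −0.61 ± 0.20), the ATP synthase subunit gene Atp5g2 (−0.66 ± 0.23) and the troponin gene Tnnt2 (−0.47 ± 0.13) had the smallest p values. With its most abundant transcript alone Ndufb5 differed by −0.20, and in limma voom Atp5g2 differed by −1.07.

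The Zfp median (−0.11) and the long-lived median (−0.06) were below 0, and the short-lived median (0.76) was above it. The short-lived list holds immediate-early and cytokine genes already known to be higher here, so these signs cannot show an effect of half-life. By heart the short-lived median was 0.03, 0.73 and 0.57 in I/R hearts and −0.59, −0.06 and −0.55 in Sham hearts. I/R replicates 2 and 3, which had the highest values of the short-lived list, had the lowest values of the Zfp genes. Sham replicate 1 had the lowest of the short-lived list and the highest of the Zfp genes. Not all hearts followed this order. I/R replicate 1 was above every Sham heart in the short-lived list (0.03), and its Zfp value (0.12) was above Sham replicates 2 and 3. Sham replicate 3 was close to Sham replicate 1 in the short-lived list but had a Zfp value of 0.03, against 0.15. The long-lived median was 0.01, −0.07 and −0.02 in I/R hearts and 0.07, 0.06 and 0.00 in Sham hearts. Values of several gene groups in 6 hearts are a description of these hearts. Zfp36 and Zfp36l1, which share the name but encode RNA-binding proteins that promote mRNA decay, differed by 0.99 ± 0.28 and 0.62 ± 0.15, each with every I/R heart above every Sham heart.

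**Figure D4:**
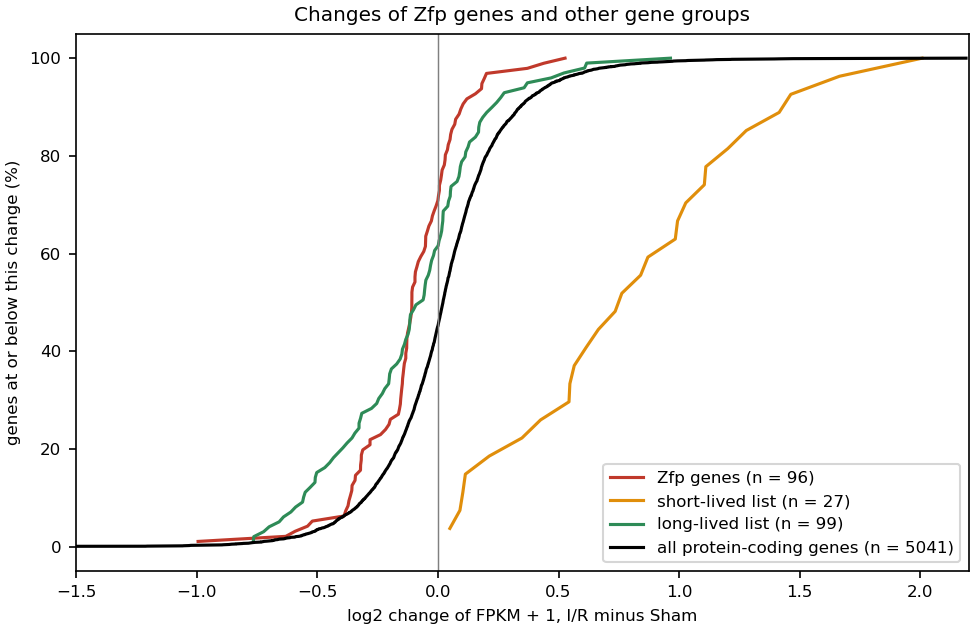
Cumulative share of genes, in percent, at or below each log2 difference (I/R minus Sham, log2(FPKM + 1)), for 96 Zfp genes, 27 genes of the short-lived list, 99 of the long-lived list and 5041 protein-coding genes. The Zfp curve lies to the left of that of all genes around 0 (medians −0.11 and 0.02), and the short-lived curve lies far to the right (median 0.76).

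**Figure D5:**
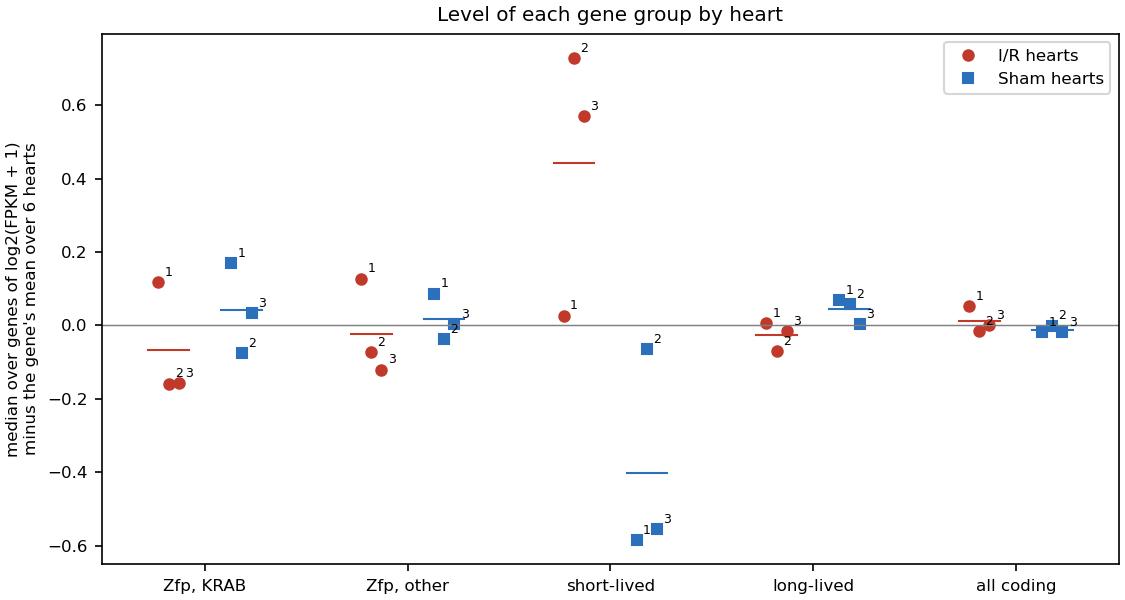
Median level of each gene group in each heart, as log2(FPKM + 1) relative to each gene's mean over 6 hearts, with I/R hearts as red circles left of Sham hearts as blue squares, replicate numbers beside the points and bars at the group means. Replicate 1 of both groups is high in Zfp genes with and without KRAB annotation, and I/R replicates 2 and 3 are low in them. In the short-lived list I/R replicates 2 and 3 are high, and I/R replicate 1, at 0.03, also lies above every Sham heart.

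Other zinc finger families gave a mixed picture. Of genes named Zbtb, Zscan, Zkscan, Zik, Zim, Zfhx or Znfx, most of which encode C2H2 proteins, 32 were in the table and 15 were tested, with a median of 0.00, 7 lower and 8 higher. Zbtb20 (−0.56 ± 0.22) and Zbtb4 (−0.35 ± 0.14) were the 2 of 15 with an unadjusted p under 0.05, both lower (background 1.67% lower), and 0 had an adjusted p under 0.05 (limma, smallest 0.562). The difference of Zbtb4 was −0.12 with its most abundant transcript alone and −0.15 in limma voom. Zbtb10 differed by 0.31 ± 0.20 and Zbtb18 by −0.20 ± 0.20, and in limma voom these were 0.73 and −0.52. Of 7 tested genes named Zc3h, whose fingers mostly bind RNA, 5 were lower and 2 higher, with a median of −0.13. Over all protein-coding genes tested 45.1% were lower. Of the 7, 0 had an unadjusted p under 0.05 (limma, smallest adjusted p 0.591). Zc3h10 differed by −0.54 ± 0.26, Zc3h6 by −0.49 ± 0.21, Zc3h14 by −0.24 ± 0.23 and Zc3h7a by 0.26 ± 0.26. Whether the Zfp genes differ from these families was not tested.

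Levels of cell type markers were compared beside the Zfp genes. Of 9 ventricular cardiomyocyte markers tested, 8 were lower in I/R hearts (median −0.33), and their summed level ran from 11551 to 12260 FPKM in I/R hearts and from 11653 to 12571 FPKM in Sham hearts. Of 6 fibroblast markers tested 5 were higher (summed 298 to 337 FPKM in I/R hearts and 212 to 289 FPKM in Sham hearts). Of 8 macrophage markers looked for, only 4 were in the table. All 4 were higher (summed 1096 to 1191 FPKM in I/R hearts and 885 to 1064 FPKM in Sham hearts). Among all protein-coding genes tested, 54.9% were higher and 45.1% lower. Atrial cardiomyocyte markers summed to 466 to 953 FPKM in I/R hearts and 330 to 722 FPKM in Sham hearts, and of 4 tested 2 were lower and 2 higher. Endothelial markers summed to 137 to 175 FPKM in I/R hearts and 125 to 155 FPKM in Sham hearts, and of 4 tested 2 were lower and 2 higher. No marker of these 5 types in the table was at 0 in all hearts. Markers of other types were few. Of 3 tested for smooth muscle and pericytes 2 were higher and 1 lower, the 1 for neutrophils was higher and the 2 for blood were lower. For lymphocytes 0 were tested. The part of these cell types in the family's values was not tested, and in bulk tissue fewer cells of a type cannot be told apart from less RNA per cell.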

How the data were processed

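Per the labels' protocols, NEBNext kits were used to select poly(A) RNA and to build the libraries of the 6 hearts. Tools in the submitters' processing notes include HISAT2 (2.1.0), HTSeq (0.10.0), fastp (0.23.0) and bcl2fastq (2.19.1.403), and their builds are mm10, GRCm38 and GRCm39. Roles of these are not stated. The authors deposited FPKM for each transcript. All 171 Zfp spans overlapped the GRCm38 RefSeq spans of the same symbol by at least 50%, and coordinates are given as GRCm38.

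Of 21198 rows, 40 repeats were dropped. FPKM were summed per gene. Those reaching 0.5 FPKM on average over the 6 hearts were fitted as log2(FPKM + 1) with limma 3.58.1 in R 4.3.3 (group only, variance trend, two-sided), adjusted by Benjamini-Hochberg over 12114 genes. This scale understates changes of low genes. Reads were recovered because FPKM of a library are whole multiples of 1 read over length and total: whole reads (tolerance 0.001) were found for 11744 of 11745 mRNA rows. Both steps were tested on simulated data. Tables and figures used Python 3.11.15, numpy 2.4.6, pandas 2.3.3 and matplotlib 3.10.9.

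Genes were named by rule: the 12 most abundant, the 8 with the smallest p per direction, a fixed set of known genes, and 4 per list; members of the fixed set that are not given were not analysed here. The members and lists were chosen with earlier results of these data known. Settings varied one at a time were the pseudocount, the filter, the scaling, the variance model, the transcript used, the genes fitted together, a replicate block, and which heart was left out.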

Additional observations from a re-analysis of the deposited data

How the results depend on the processing

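No Zfp gene had an adjusted p under 0.05 in limma under any alternative run. The number with an unadjusted p under 0.05, 2 as reported, was 1 with a filter at 1 FPKM, 5 without a variance trend, 5 with protein-coding genes fitted alone, 6 in limma voom on recovered reads, 3 with the replicate block, and 1 to 3 with 1 heart left out. The share of Zfp genes lower in I/R hearts ran from 62.5% to 84.4% and the family median from −0.18 to −0.04 with 1 heart left out, and from 64.9% to 77.1% and −0.15 to −0.07 over the other settings, the last with no filter. All of these medians were below 0. With median-ratio scaling the median was −0.13 for Zfp genes and −0.005 for all protein-coding genes. With 1 heart left out, the medians ran from −0.20 to −0.04 with KRAB annotation and from −0.18 to −0.05 without it. In the same fits they ran from 0.66 to 0.98 in the short-lived list and from −0.10 to −0.03 in the long-lived list. The long-lived median of −0.06 was −0.11 in limma voom. The sign of a single gene turned for Zfp867 (−0.015) and Zfp719 (−0.018) with median-ratio scaling and for Zfp423 (−0.19) and Zc3h7a (−0.069) in limma voom, and the cause was not tested. With 1 heart left out, differences ran from −0.060 to 0.23 for Zfp703, −0.042 to 0.14 for Zfp3, −0.075 to 0.16 for Zfp867, −0.063 to 0.11 for Zfp719, −0.016 to 0.17 for Zfp64, −0.020 to 0.71 for Zfp457, −0.030 to 0.23 for Zfp566 and −0.12 to 0.36 for Zfp423. Without a change of sign they ran from −0.52 to −0.23 for Zfp60, −0.45 to −0.18 for Zfp445 and −0.43 to −0.11 for Zc3h14. The replicate numbers were not taken to pair the hearts, since the labels do not say that they do. Deviations of same-numbered hearts over all genes correlated at 0.153, 0.028 and 0.029, and not every heart correlated best with its own number. Of the 96 Zfp genes tested, 73 had at least 100 reads over 6 hearts.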
